A study of Mus musculus with 12 samples.

Results

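In-frame rearrangements of the T cell receptor beta chain with a stop codon in the CDR3, the stretch across the V, D and J joint that contacts antigen, were collected from all 12 deposited clonotype tables. A clonotype was taken when its translated CDR3 held a stop and its frame was intact. This gave 7091 of 113663 clonotype entries (7038 distinct sequences), beside 93537 in-frame entries free of a stop (stop-free) and 13035 out-of-frame entries. The cells were CD4+ donor T cells from Rag2–/– recipients, which lack mature T and B cells of their own. Donor cells were taken 6 weeks after transfer of naive T cells from C57BL/6 donors. WT donors carried PRKAA1fl/fl and KO donors carried the same floxed alleles with CD4-Cre, which deletes AMPKα1 from the CD4+CD8+ thymocyte stage, after beta chain rearrangement. Each genotype had 3 recipients (WT replicates 1, 3 and 4, KO replicates 1, 2 and 3), and each recipient gave 1 mLN and 1 spleen library, so 6 mice were compared. The tables hold receptor sequences alone, so cell type markers could not be checked, and the labels did not say whether the donor cells of 1 genotype came from 1 or several animals.

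Beta chain genes are assembled by joining a V, a D and a J segment, with bases trimmed from and added to the ends at random. A joint can lose the reading frame or gain a stop codon, and such a nonproductive allele stays in the cell when the other allele makes the receptor. Messenger RNA with an early stop is degraded by nonsense-mediated decay, and T cell receptor transcripts are a known substrate of it.

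Of the germline V ends, read from the mouse genome (GRCm38) from the conserved cysteine codon to the last coding base, 27 of the 30 V segments in use could be placed, and they covered 99.9% of in-frame entries. TRBV4 alone carried a complete in-frame stop in its own germline end, at chr6:41059870-41059886 on the + strand, in the last exon of a gene of GENCODE type TR_V_gene. The germline end is shown first, with the stop in capitals, because any TRBV4 joint that keeps its first 15 bases in frame has a stop. The largest stop clonotype of each mouse follows, by the mean share of UMIs over both organs, with each in-frame stop in capitals:
TRBV4 germline end: tgtgccagcagcTAAga
WT replicate 1, TRBV4 and TRBJ2-3: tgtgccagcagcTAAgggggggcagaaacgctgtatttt
WT replicate 3, TRBV15 and TRBJ1-5: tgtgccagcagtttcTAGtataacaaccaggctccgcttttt
WT replicate 4, TRBV4 and TRBJ1-3: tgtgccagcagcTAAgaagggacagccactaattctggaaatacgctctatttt
KO replicate 1, TRBV4 and TRBJ2-7: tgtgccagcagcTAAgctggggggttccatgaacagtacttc
KO replicate 2, TRBV24 and TRBJ1-1: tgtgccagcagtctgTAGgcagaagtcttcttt
KO replicate 3, TRBV4 and TRBJ2-5: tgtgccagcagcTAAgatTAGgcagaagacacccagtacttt

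The largest stop clonotype used TRBV4 in 4 of 6 mice, and all 4 of these kept the germline TAA at codon 5. The TRBV15 clonotype of WT replicate 3 had its TAG at codon 6, between the last base assigned to V and the first assigned to J. The TRBV24 germline end (GENCODE type TR_V_pseudogene) closes with the bases ta, so that 1 further base, here g, completed a TAG at codon 6 in KO replicate 2.

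The libraries were uneven before any comparison. Totals of unique molecular identifiers (UMIs, random tags that mark each starting cDNA) ran from 2488 to 493287 per library. In 5 libraries fewer than 10% of the stop-free clonotypes of 1 UMI ended in 9 bases unusual for their J segment, and these had 2488 to 64882 UMIs. They were the pairs of organs from the first WT and the first KO recipient, and KO replicate 3 mLN. The other 7 had 68536 to 493287 UMIs, and 25.5% to 37.7% of such clonotypes had an unusual end. The kinds were defined from the data, not by the labels. Only 35 stop entries came from the first kind and 7056 from the second. Results are therefore also given by kind. What set the kinds apart was not tested.

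Stop clonotypes were common as entries and rare as molecules. They made up 7.05% of in-frame entries and 0.538% of all UMIs (9231 of 1716882). By library, their share of in-frame clonotypes was 0.730% in WT replicate 1 mLN (95% Wilson interval 0.370 to 1.43), 0.224% in its spleen (0.0615 to 0.814), 0.868% in KO replicate 1 mLN (0.485 to 1.55) and 0.966% in its spleen (0.576 to 1.62). These came from the mice with the fewest stop clonotypes. In WT replicate 3 the shares were 4.74% in mLN (4.2 to 5.35) and 7.11% in spleen (6.77 to 7.46), and in WT replicate 4 they were 6.21% (5.77 to 6.69) and 7.98% (7.67 to 8.30). KO replicate 2 had 6.57% in mLN (6.01 to 7.17) and 7.03% in spleen (6.52 to 7.58). In KO replicate 3 the spleen had 8.99% (8.54 to 9.47), the highest share, and the mLN had 0 of 245 in-frame clonotypes, which allows a share of up to 1.22% by a limit of 3 counts (Wilson upper limit 1.54%). The 2 kinds of library did not overlap in this share, and each kind held both genotypes. Intervals and limits cover counting error only.

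**Figure D1:**
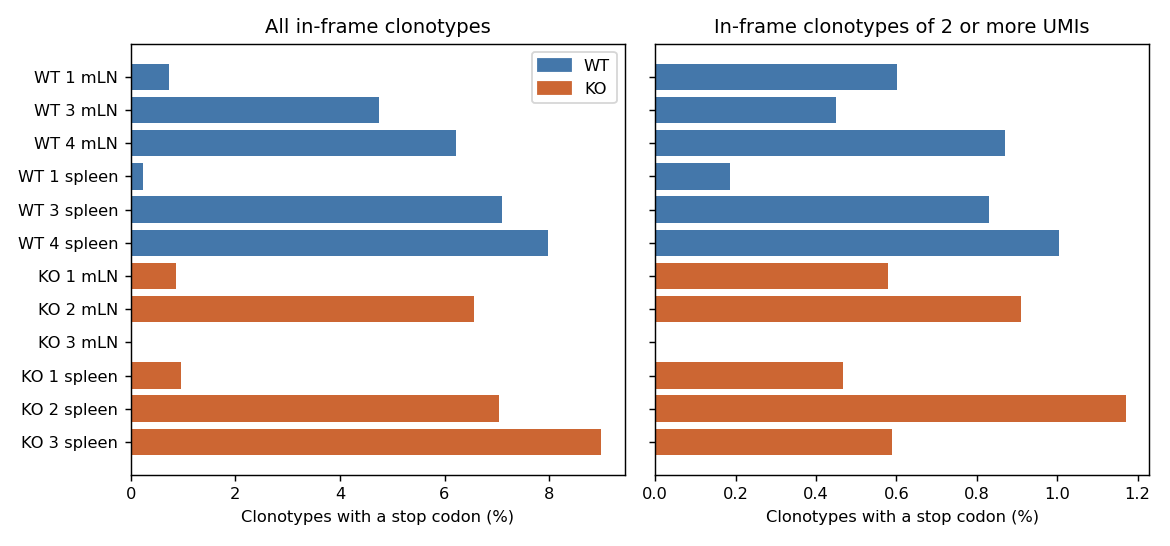
Share of in-frame clonotypes that held a stop codon (%, x axis) in each of the 12 libraries (y axis, bars by genotype), over all in-frame clonotypes (left) and over those of 2 or more UMIs (right, its own scale). The 5 libraries with few unusual J ends sit at 0 to 0.966% on the left, below the other 7 at 4.74% to 8.99%, and the shares overlap on the right.

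Nearly all stop clonotypes were single molecules. Of the 7091, 6918 (97.6%) had 1 UMI, 138 had 2 to 9 and 35 had 10 or more. Among in-frame clonotypes of 1 UMI, 8.78% held a stop, against 1.21% at 2 to 4 UMIs, 0.735% at 5 to 9 and 0.392% at 10 or more. With 2 or more UMIs the libraries lay at 0.186% to 1.17%, apart from KO replicate 3 mLN with 0 of 175, which allows up to 1.71%. At this size the libraries with few unusual ends (0.186% to 0.602% where any was found) overlapped those with many (0.449% to 1.17%).

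Stop clonotypes were smaller than stop-free clonotypes in every mouse. The mean number of UMIs per stop clonotype in a library was 1.04 to 6.00, and per stop-free clonotype 9.42 to 43.8. Within libraries, averaged over the organs of a mouse, log2 mean size differed by −3.23 ± 0.77 (SD, n = 6), which is 9.40-fold smaller, and the direction was the same in 6 of 6 mice. By mouse, the log2 difference was −1.84, −3.67 and −3.32 in WT replicates 1, 3 and 4, and −2.94, −3.69 and −3.95 in KO replicates 1, 2 and 3. The exact sign-flip permutation test over mice (two-sided) gave p = 0.0312, the smallest that 6 mice allow, and 0.0547 after Benjamini-Hochberg adjustment over 7 such measures. The gap lies in the mean: the median of log2 UMIs differed by −0.33 (exact permutation p = 0.5, adjusted 0.583), and in the 7 libraries with many unusual ends more than 50% of both classes had 1 UMI. No measure of this family could therefore pass 0.05 unless more of them moved in every mouse.

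The share of clonotypes with 1 UMI had the same direction. It was 83.3% ± 22.3 for stop and 63.1% ± 23.1 for stop-free clonotypes, a difference of 20.2 ± 7.16 percentage points (SD, n = 6), higher in 6 of 6 mice (exact p = 0.0312, adjusted 0.0547). In the libraries with many unusual ends 96.5% to 99.0% of stop clonotypes had 1 UMI, and in those with few 50% to 64.3%.

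Out-of-frame clonotypes, the other class of nonproductive joint, lay between the classes in most libraries. Their log2 mean size was 1.61 ± 1.05 above that of stop clonotypes (SD, n = 6), which is 3.04-fold, and stop clonotypes were the smaller in 6 of 6 mice (exact sign-flip permutation p = 0.0312, adjusted 0.0625 over 2 measures). The gap was −0.24 and −0.27 on the log2 scale in WT replicate 1 and KO replicate 1, and −2.18 to −2.54 in the other 4 mice. In WT replicate 1 mLN the stop clonotypes were the larger, by 0.10. The share with 1 UMI was 17.1 ± 14.3 points higher in stop than in out-of-frame clonotypes, in 5 of 6 mice (exact p = 0.0938, the same after adjustment).

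**Figure D2:**
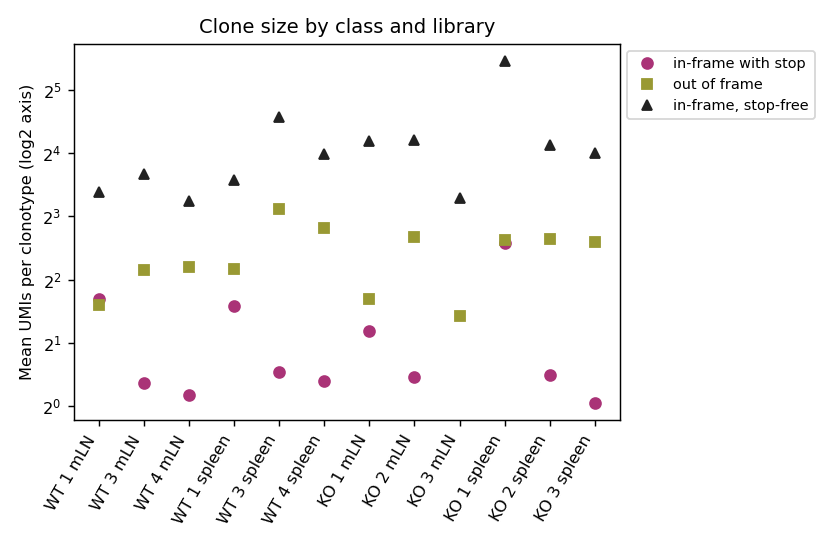
Mean UMIs per clonotype (y axis, log2 scale) for stop (circles), out-of-frame (squares) and stop-free clonotypes (triangles) in each library (x axis). Stop-free clonotypes were the largest class in all 12 libraries; stop clonotypes averaged 1.04 to 6.00 UMIs, and KO replicate 3 mLN had none.

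The few larger stop clonotypes differed from the single molecules in V segment, in the position of the stop and in the match to the germline. The 35 entries of 10 or more UMIs were 26 sequences and held 1848 UMIs, 20% of all stop UMIs. TRBV4 made up 20 of the 35 entries (57.1%) and 56.4% of their UMIs, against 4.14% of stop-free entries of the same size. Among entries of 1 UMI the TRBV4 share was 5.67% of stop and 3.83% of stop-free. The most abundant, the TRBV4/TRBJ1-3 joint of WT replicate 4 printed above, had 454 UMIs in spleen, 0.104% of the library (95% interval 0.0948 to 0.114), and 24 in mLN. The TRBV15 joint had 243 and 41, and the TRBV24 joint of KO replicate 2 had 114 and 110. The joints of KO replicate 1, KO replicate 3 and WT replicate 1 reached 32, 13 and 8 UMIs in their larger library.

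Most of the larger stop clonotypes were found in both organs of their mouse. This held for 30 of 35 entries of 10 or more UMIs (85.7%, 95% Wilson interval 70.6 to 93.7), beside 83.1% of stop-free entries, with the entries of the shallow KO replicate 3 mLN library not counted. Both such entries of KO replicate 3 spleen, which could be sought only in that mLN library, were among the 5 not found. A sequence this large in both organs gave 2 entries, which the interval counts as separate. By sequence, 21 of 26 were found in both organs. At 1 UMI it held for 0.304% of stop entries (0.199 to 0.464), 2.57% of stop-free entries (2.46 to 2.69) and 5.44% of out-of-frame entries (5.0 to 5.93). These intervals pool the entries of all mice, so they cover counting error and not the spread between mice. KO replicate 3 spleen gave 1281 of the 6918 stop entries of 1 UMI, again sought only in the shallow mLN library. Over the 5 mice with a stop clonotype of at least 10 UMIs, the within-library difference was −7.22 ± 14.3 points (SD, n = 5), with 3 mice lower and 2 higher (exact sign-flip permutation p = 0.438, adjusted 0.510). With clonotypes of 2 or more UMIs counted instead, it was −9.77 points (n = 6, exact p = 0.0312, adjusted 0.0438). Stop clonotypes of 2 or more UMIs were still smaller than stop-free ones (log2 mean size −2.61), so that difference was not matched for size. At 2 to 9 UMIs, 37.0% of stop entries (29.4 to 45.3) and 41.5% of stop-free entries were found in both organs. Between mice, 2 of 7038 stop sequences (0.0284%) occurred in more than 1 mouse, against 1.51% of stop-free sequences, and no stop sequence occurred in 3. These shares between mice were not matched for size: 97.6% of stop entries had 1 UMI, against 71853 of 93537 stop-free entries.

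The position of the stop differed by size. The CDR3 was split at the ends of the V and J alignments into V, the gap between them, and J. In entries of 1 UMI the first stop lay in V in 18.6%, across V and gap in 4.86%, in the gap in 30.6%, across gap and J in 8.50% and in J in 37.4%. In the 35 entries of 10 or more UMIs it lay in V in 19, across V and gap in 8, in the gap in 6, across gap and J in 2 and in J in 0. All 19 with the stop in V were TRBV4, so no large entry of another V segment had it there. Of the 138 entries of 2 to 9 UMIs, 36.2% lay in V and 16.7% in J, between the shares at the other sizes, while 33.3% lay in the gap, above both. TAA, TAG and TGA were near equal at 1 UMI (34.3%, 33.3% and 32.4%), while 21 of the 35 large entries had TAA, 8 TAG and 6 TGA. Of the 21 with TAA, 18 were TRBV4 joints that kept the germline TAA. Since V and J shares follow the same alignments, these counts describe the entries and carry no test. The CDR3 held 1 stop in 6738 entries, 2 in 337, 3 in 15 and 4 in 1.

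Codon 5 held the first stop in 24 of the 35 large entries, 20 of them TRBV4, and codon 6 in 8 more. Among entries of 1 UMI codon 5 led with 16.3%, and stops also lay at codon 1 (8.76%) and from codon 6 to codon 11 (7.94% to 11.1% each). Counted from the end, the stop lay at codon 3 in 14.2% of all stop entries, at codon 5 in 15.9% and at codon 6 in 15.2% (1008, 1125 and 1075 entries).

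**Figure D3:**
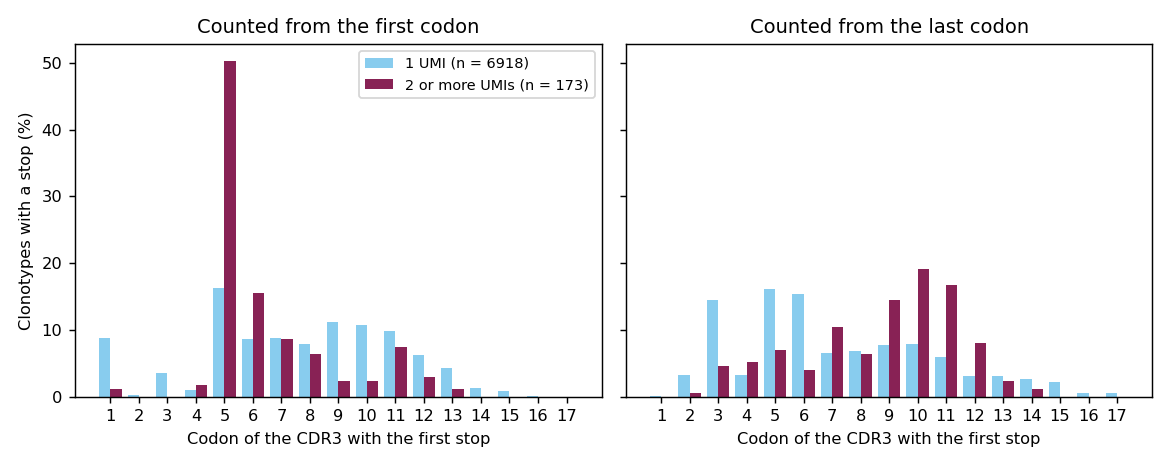
Codon of the CDR3 that held the first stop (x axis), counted from the first codon (left) and from the last (right), as a share of stop clonotypes (%, y axis) for 1 UMI and for 2 or more UMIs. At 2 or more UMIs codon 5 held 50.3%, against 16.3% at 1 UMI.

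Stops of 1 UMI were next set beside the germline codon at the same position. Codon 1 encodes the conserved cysteine (TGT in most V segments), and 551 of the 608 stops at codon 1 read TGA. All but 2 of the 608 had 1 UMI. Of the 247 stops at codon 3, all of 1 UMI, 135 were in TRBV31 and 94 in TRBV1. TRBV31 is TGG there and TRBV1 is TGC, and stops at codon 3 made up 2.14% and 1.33% of their in-frame entries of 1 UMI. The other 17 V segments with at least 1000 such entries lay at 0 to 0.137%. At codon 5, the 4 segments with germline TTA (TRBV3, TRBV15, TRBV16 and TRBV29, a group chosen after the values were seen) had a stop in 3.0% to 4.99% of in-frame entries of 1 UMI. TRBV4 had 5.41% and the 14 other segments with at least 1000 such entries had 0.0943% to 1.32%.

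With no stop in the germline end of the other V segments read, a stop within their alignment has to differ from the germline, so the following counts describe the kind of difference and compare nothing. Of the 1153 entries outside TRBV4 with the stop within the V alignment, 96.0% had a substitution in the stop codon and the other 46 had an insertion or deletion in the alignment. Of the 204 TRBV4 entries 16.2% had a substitution there. Within the J alignment 96.8% of 2611 entries had a substitution in the stop codon and the other 84 an insertion or deletion. The share in J was alike by size, with 22 of 23 entries at 2 or more UMIs. T read as A was the most frequent change in both, in 532 of 1206 V substitutions (44.1%) and 785 of 2620 J substitutions (30.0%) at 1 UMI. In stop-free clonotypes of 1 UMI the same change made up 3.95% of V and 9.10% of J substitutions. A substitution in a stop codon must be one that yields a stop, so the 2 spectra differ in what can be seen.

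The rest of the CDR3 was compared apart from the stop codon. Over all entries of 1 UMI, substitutions per 100 aligned bases were 6.60 outside the stop codon in stop clonotypes and 5.69 in stop-free clonotypes. With the stop codon included the value was 8.01, and at 10 or more UMIs it was 0.0866 (1 substitution in 1155 bases of 35 entries), beside 0.334 in stop-free clonotypes. Outside the stop codon, stop clonotypes of 1 UMI had 6.63 substitutions per 100 aligned bases in WT replicate 3 spleen, 7.10 in WT replicate 4 spleen and 6.09 in KO replicate 2 spleen, beside 5.88, 6.16 and 5.75 in stop-free clonotypes of 1 UMI. In the libraries with few unusual ends stop-free clonotypes of 1 UMI had 0.436 to 0.631 per 100 bases, and their 20 stop entries of 1 UMI had 7 substitutions outside the stop codon. Of these 7, 5 lay in the 4 entries of WT replicate 1 mLN, too few entries for a comparison. The lowest base quality in the CDR3 was 40 in 99.6% of stop and 97.9% of stop-free entries of 1 UMI.

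Ends of the CDR3 showed the same changes. The first stop lay in the last 9 bases in 1240 entries (17.5%). Its 3 most frequent forms are shown with the commonest end of the same J segment among all clonotypes, the stop in capitals, because each differs from it by a named base:
TRBJ2-4, commonest end: ttgtacttt
TRBJ2-4, end with stop: TAGtacttt
TRBJ2-5, commonest end: cagtacttt
TRBJ2-5, end with stop: TAGtacttt
TRBJ2-1, commonest end: cagttcttc
TRBJ2-1, end with stop: TAGttcttc

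With positions counted from 1 at the first of the 9 bases and the base of the commonest end written first, the TRBJ2-4 form was T2A and the other forms C1T. They occurred in 239, 117 and 101 entries, of which 238, 117 and 101 had 1 UMI, in 4, 4 and 5 mice. An unusual J end of any form was found in 34.3% ± 22.9 of stop and 17.9% ± 12.9 of stop-free clonotypes, 16.4 ± 10.6 points more (SD, n = 6), in 6 of 6 mice (exact sign-flip permutation p = 0.0312, adjusted 0.0547). The difference was 3.38 points in libraries with few unusual ends. In WT replicate 1 it was 10.4 points in mLN (8 stop clonotypes) and −1.69 in spleen (2 stop clonotypes). In KO replicate 1 it was −0.796 points in mLN (11) and 5.61 in spleen (14). The direction in these mice thus rests on few entries. A stop in the last 9 bases makes the end unusual by itself, and without such entries the difference over all 6 mice was 7.77 points (exact p = 0.125).

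Few stop clonotypes lay 1 base away from a much larger clonotype. A clonotype at least 10 times larger and 1 base away in the same library was found for 1.19% of stop and 3.22% of stop-free entries of 1 UMI. By mouse, 5 of 6 had a lower share in stop clonotypes, and KO replicate 1, with 2 of its 11 mLN entries next to such a clonotype, was higher by 7.21 points (mean −0.195 ± 3.64, n = 6, exact p = 1). To the nearest stop-free clonotype of 10 or more UMIs of the same length, single-UMI stop clonotypes had a median distance of 4 to 5 bases in the 7 libraries with many unusual ends, and stop-free ones 4. Within 3 bases of such a clonotype lay 24.6% to 36.1% of these stop and 37.5% to 47.6% of these stop-free clonotypes. The 1-base measure misses such pairs, and 43.7% of stop entries of 1 UMI had 3 or more substitutions to the germline segments.

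CDR3 length did not differ beyond its spread, at 42.7 ± 1.82 bases for stop and 41.5 ± 0.134 for stop-free clonotypes (difference 1.23 ± 1.86, n = 6, exact p = 0.188, adjusted 0.262). It was 3.42 and 3.81 bases longer in WT replicate 1 and KO replicate 1, which had 8 and 22 distinct stop clonotypes, and within 0.264 bases in the other mice. The gap between V and J was longer by 1.12 ± 0.581 bases, in 6 of 6 mice (10.7 ± 0.787 against 9.54 ± 0.610, exact p = 0.0312, adjusted 0.0547). The organs were opposed in 2 of these mice. The gap difference was −0.337 bases in mLN and 1.14 in spleen of WT replicate 1 (8 and 2 stop clonotypes). In KO replicate 1 it was 4.45 and −0.146 bases (11 and 14 stop clonotypes). At 2 or more UMIs the gap difference over mice was 0.944 bases (exact sign-flip permutation p = 0.188). In entries of 10 or more UMIs the mean gap was 8.31 bases for stop and 8.70 for stop-free.

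V segment use was compared in clonotypes counted once per mouse with edgeR's quasi-likelihood test, with the mouse as block. Of 23 segments tested, 5 (21.7%) differed between stop and stop-free clonotypes at an adjusted p under 0.05, 3 higher and 2 lower in stop clonotypes. TRBV4 rose most, by 0.72 ± 0.15 on the log2 scale (SE, adjusted p = 0.000223). Its share of stop clonotypes was 62.5%, 6.50% and 6.10% in WT replicates 1, 3 and 4 and 27.3%, 6.06% and 5.33% in KO replicates 1, 2 and 3. Its share of stop-free clonotypes was 4.57%, 5.09% and 3.11%, and 2.99%, 4.10% and 3.52%. TRBV4 was the higher in 6 of 6 mice, and the ranges did not overlap. The 2 highest values came from mice with 8 and 22 stop clonotypes, and in the 4 mice with at least 100 the log2 difference was 0.64 (adjusted p = 1.5e-05).

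TRBV29 was higher by 0.47 ± 0.16 (adjusted p = 0.0275, edgeR) and TRBV16 by 0.37 ± 0.13 (adjusted p = 0.0275), in 5 and 4 of 6 mice. Both have TTA at germline codon 5, as have TRBV3 and TRBV15, which did not pass (log2 difference 0.15 and 0.07, adjusted p = 0.391 and 0.720). TRBV19 was lower by 0.52 ± 0.13 (log2 fold −0.52, adjusted p = 0.00265) and TRBV12-1 by 0.51 ± 0.19 (log2 fold −0.51, adjusted p = 0.0392), each in 5 of 6 mice. The 5 V segments with most stop clonotypes, TRBV13-2 with 775, TRBV5 with 692, TRBV3 with 674, TRBV1 with 578 and TRBV31 with 545 entries, had log2 differences of −0.16, 0.04, 0.15, −0.06 and −0.12, none past the threshold. Without WT replicate 4 no V segment passed (TRBV4 adjusted p = 0.0885, edgeR, 5 segments at an unadjusted p under 0.05), and without the mouse as block none did either (3 unadjusted). DESeq2 called 2, TRBV4 and TRBV19.

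**Figure D4:**
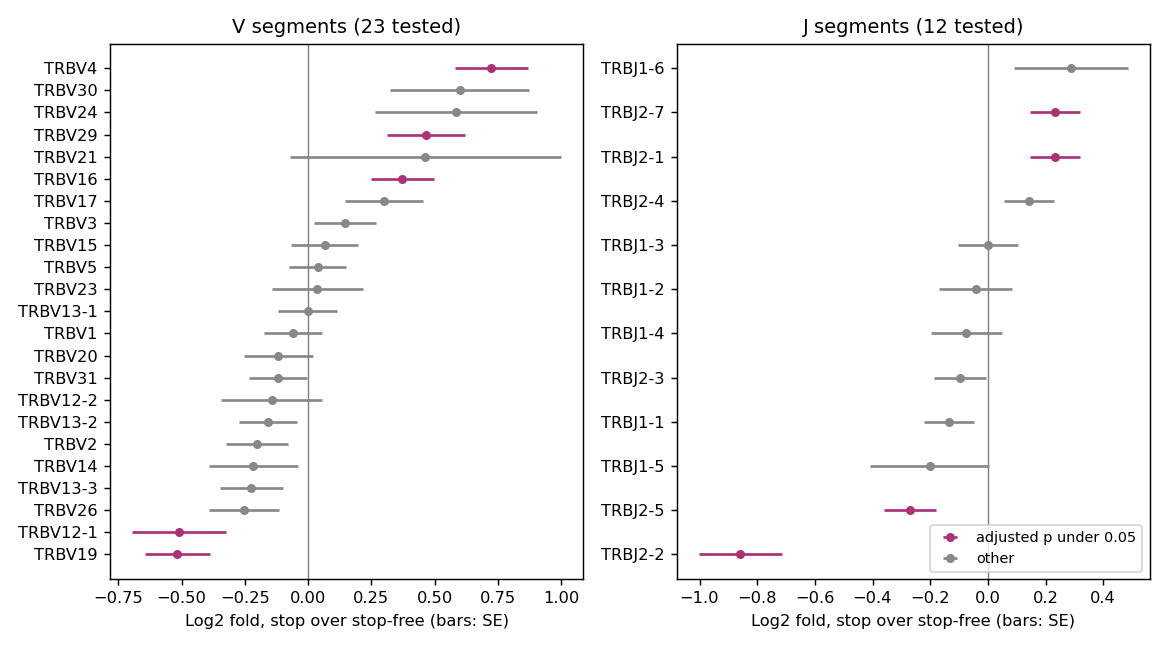
Log2 fold of the share of clonotypes, stop over stop-free (x axis, bars are SE of the edgeR fit over 6 mice), for each V (left) and J segment (right) tested. TRBV4 lies highest among V segments at 0.72, and TRBJ2-2 lowest among J segments at −0.86.

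At 2 or more UMIs the TRBV4 difference was larger. In these clonotypes 68 of 924 TRBV4 entries held a stop (7.36%), against 0.230% (TRBV31) to 1.42% (TRBV29) in the other segments with at least 200 entries and any stop, and TRBV4 was the segment that edgeR called there. TRBV24, with the germline end in ta, had 6 of 107 (5.61%). By library, TRBV4 stops at 2 or more UMIs were found in 1.61% to 12.6% of its in-frame clonotypes in the 11 libraries with stop clonotypes, and in 0 of 11 in KO replicate 3 mLN. TRBV12-2, TRBV17 and TRBV23 had 0 of 254, 0 of 273 and 0 of 192, which allow 1.18%, 1.10% and 1.56%.

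TRBV4 joints were then split by how many bases matched the germline end without a break from its first base. A joint with an early substitution is thus placed among those that kept few bases. As 15 kept bases include the germline TAA, all 124 in-frame TRBV4 entries with 15 or more had the stop at codon 5 by definition. Of these, 59 had 2 or more UMIs. Of 336 that kept exactly 14 bases 35 had a stop, 27 of them at codon 5. At 13 bases 26 of 774 had one, 4 of them at codon 5. With 12 or fewer 275 of 2835 did, 81 of them at codon 5. Among entries of 10 or more UMIs these counts were 18 of 18, 2 of 62, 0 of 134 and 0 of 174. Conversely, all 20 TRBV4 stop entries of 10 or more UMIs kept at least 14 germline bases.

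**Figure D5:**
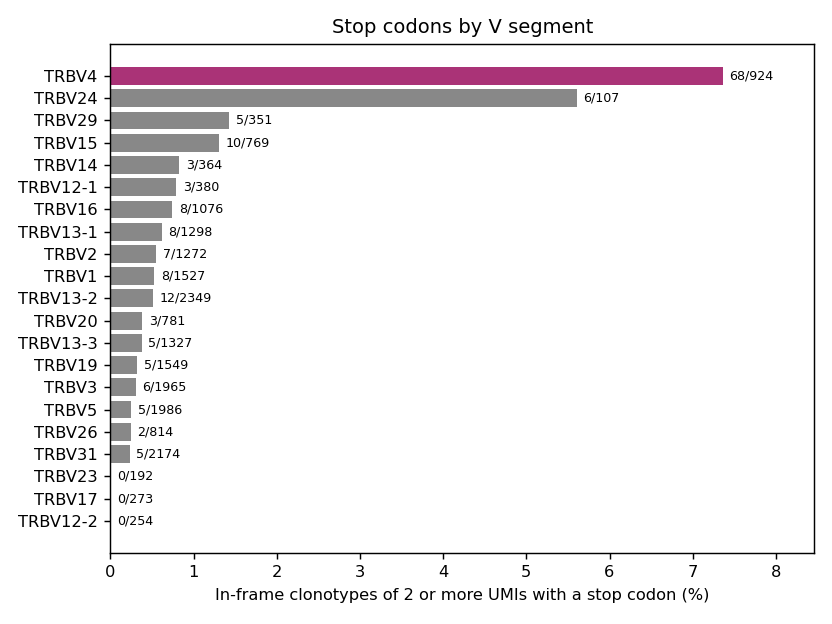
Share of in-frame clonotypes of 2 or more UMIs that held a stop codon (%, x axis) for each V segment with at least 100 such clonotypes (y axis), all libraries together, with stop and total counts beside each bar. TRBV4 (7.36%) and TRBV24 (5.61%) lie above the remaining segments, which reach 1.42%.

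J segment use differed for 4 of 12 segments (33.3%). TRBJ2-2 was lower by 0.86 ± 0.14 (log2 fold −0.86, adjusted p = 1.76e-06, edgeR), in 6 of 6 mice, with 2.65% ± 1.59 of stop and 5.60% ± 0.905 of stop-free clonotypes (SD, n = 6). TRBJ2-5 was lower by 0.27 ± 0.09 (log2 fold −0.27, adjusted p = 0.0221), in 6 of 6 mice. TRBJ2-7, with most stop entries (1440), and TRBJ2-1 were each higher by 0.23 ± 0.09 (adjusted p = 0.0306), in 5 and 6 of 6 mice. TRBJ2-4 (907 entries) and TRBJ1-1 (852) differed by 0.14 and −0.14 and did not pass. Without WT replicate 3, without WT replicate 4, without the block and in the 4 mice with at least 100 stop clonotypes TRBJ2-2 was the 1 J segment called. At 2 or more UMIs no J segment was called (1 at an unadjusted p under 0.05).

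Codon makeup and stop share went together in part across segments, as a description. For each segment, the number of single-base changes that would create a stop was counted in the stop-free CDR3s of 10 or more UMIs. It ranged from 5.23 per CDR3 in TRBV19 to 7.22 in TRBV31, among V segments with at least 200 entries of 1 UMI and 20 large entries, and from 3.64 in TRBJ1-5 to 7.92 in TRBJ2-7. Its rank correlation with the share of stops at 1 UMI was 0.606 over 22 V segments and 0.580 over 12 J segments, which share the same libraries. The Pearson correlation was lower, at 0.490 for V and 0.439 for J segments. TRBJ2-2, with 5.77 such changes, had the lowest share of stops at 1 UMI of the 12 J segments (5.14%), and TRBV31, with the most changes, had 8.55%.

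The study asked how loss of AMPKα1 affects the repertoire of expanding T cells, and the share of stop clonotypes did not differ between genotypes beyond the spread of the mice. In spleen, stop clonotypes held 0.435% ± 0.266 of UMIs in KO and 0.393% ± 0.318 in WT (SD, n = 3 each, exact permutation p = 0.9). In mLN they held 0.200% ± 0.260 in KO and 0.480% ± 0.265 in WT (exact p = 0.3). At the smallest library total, 2488 UMIs, stop clonotypes were 1.55% ± 0.893 (KO) and 1.25% ± 0.936 (WT) of in-frame clonotypes in spleen and 0.760% ± 0.945 and 1.35% ± 0.671 in mLN (exact p = 0.6 and 0.4). Within the libraries with many unusual ends the KO minus WT difference in mLN was 0.121 points, against −0.586 over all, and the KO group held 2 mLN libraries with few unusual ends and the WT group 1. The share of stops in or next to the gap was 43.1% ± 6.51 in KO and 28.9% ± 25.0 in WT spleen, where WT replicate 1 had 0 of 2, and 44.7% ± 1.04 (n = 2) and 35.2% ± 8.82 (n = 3) in mLN. With 3 mice against 3 the smallest possible p is 0.1, and all adjusted values were 0.72 or above. In edgeR's test of the genotype by class interaction, 0 of 23 V segments and 0 of 12 J segments passed (0% of each), with 0 and 1 at an unadjusted p under 0.05 and 0 and 0 with DESeq2.

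The organs gave no difference beyond their spread either. The stop share of UMIs was 0.340% ± 0.280 in mLN and 0.414% ± 0.263 in spleen (difference −0.0744 ± 0.273, n = 6, exact sign-flip permutation p = 0.75). After downsampling, the stop share of in-frame clonotypes was 1.05% ± 0.800 in mLN and 1.40% ± 0.835 in spleen (exact p = 0.531), with 1 of 6 mice higher in mLN. In WT replicates 3 and 4 and KO replicates 2 and 3, the spleen share after downsampling was 1.44%, 2.08%, 2.0% and 2.13%. Their mLN shares were 1.41%, 1.98%, 1.82% and 0%, the last in a library of 2488 UMIs.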

How the data were processed

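The authors prepared TCR beta libraries from RNA of sorted CD4+ T cells with UMIs, grouped and corrected the reads by UMI (MIGEC), and built clonotypes by V, D and J alignment (MiXCR, default settings). Versions and the V and J reference are not given in the sources used here. The deposited tables list, per clonotype, a count (whole numbers, taken here as UMIs, since the tables do not name the unit), a fraction of the library total by the authors, and a lowest quality score deposited for the CDR3. The 12 libraries came from 6 mice, the replicates, and labels do not give the donors. The library totals, 2488 to 493287 UMIs, set the precision.

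Rows with the same CDR3 were summed (2 rows). Stop, stop-free and out-of-frame clonotypes were compared within libraries, averaged over organs and tested over mice with two-sided exact sign-flip permutation (64 patterns). Genotypes were compared by exact permutation (20 assignments) and organs by sign flips. Shares of clonotypes between libraries used the mean of 50 draws of 2488 UMIs. The V-J gap runs from the last V to the first J aligned base. An unusual J end differs from the commonest 9 bases of that J segment among stop-free clonotypes of 10 or more UMIs. Segments with at least 10 clonotypes in at least 3 mice were tested with edgeR 4.0.16 (R 4.3.3), with class totals as library sizes and the mouse as block, and DESeq2 1.42.0 as alternative. Benjamini-Hochberg adjustment ran within each family. On simulated data, 96.8% (V, 23 segments) and 100% (J, 12 segments) of segments changed 4-fold were recovered, with 1.44% and 1.60% false calls. Python 3.11.15, numpy 2.4.6, pandas 2.3.3 and scipy 1.17.1 were used. Germline V ends were read from GRCm38 with GENCODE annotation.

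The rule for named items took segments past adjusted p 0.05 (at most 10 in each direction), the 5 V and 3 J segments with most stop clonotypes, the largest stop clonotype of each mouse, those over 0.1% of a library with at least 10 UMIs, and those found in 3 or more mice (none). TRBV24, TRBV15, TRBV12-2, TRBV17, TRBV23 and the J segments of the ends shown were named after their values were seen. Members and lists were chosen with earlier results of these data known. Alternatives were other segment scalings, size limits, organs, neighbour filters, library kinds, left-out mice and the block. The mice with at least 100 stop clonotypes and the removal of stops in the last 9 bases were chosen after seeing the data. p-values measure the spread between these mice.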

Additional observations from a re-analysis of the deposited data

Results flagged for a closer look

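The share of stop clonotypes next to a clonotype at least 10 times larger was 7.21 percentage points above that of stop-free clonotypes in KO replicate 1, which lay far from the other 5 mice (−2.05 to −1.30 points). It rests on 2 of 11 stop clonotypes of the mLN library.

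KO replicate 3 lay far from the other mice in the difference between mLN and spleen, at −0.607 percentage points in the stop share of UMIs and −2.13 points in the stop share of in-frame clonotypes after downsampling. Its mLN library had 2488 UMIs and no stop clonotype, and its unusual J ends were few while those of its spleen were many. Chance flags about 1 in 20 groups.

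The stop share of UMIs was higher in mLN than in spleen in all 3 WT mice (by 0.164, 0.0351 and 0.0623 points) and lower in all 3 KO mice (−0.0242, −0.0768 and −0.607). The mean difference of KO minus WT was −0.323 points. The difference was not tested.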

How the results depend on the processing

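Of 285 alternative values for the comparisons, 234 kept their side of the threshold or moved within the spread between mice, 26 moved further, 17 reversed and 8 passed a threshold not passed before. For the named segments the counts were 182 unchanged, 62 that lost the call and 12 reversed of 256. Of the 234, 2 untested values changed sign within that spread: the neighbour difference was 2.78 in libraries with few unusual ends, and KO minus WT for clonotypes in mLN was 0.121 in those with many. The median of log2 UMIs gave −0.33 (exact permutation p = 0.5, adjusted 0.583). Causes were not tested except where stated.

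Replicate numbers were shared by different mice, so they pair no samples across genotypes. With the replicate block the KO minus WT differences were 0.121 (UMIs, spleen), −0.294 (UMIs, mLN), 0.491 (clonotypes, spleen), −0.798 (clonotypes, mLN), 20.7 (stops in or next to the gap, spleen) and 20.5 points (mLN). In the comparisons of classes the mouse is the block. Without this replicate block clone size differed by −3.23 (stop-free, adjusted p = 0.0152) and −1.61 (out-of-frame, adjusted p = 0.00866) in the exact permutation test, V segments called fell to 0, J segments to 1, and TRBV1 turned to 0.068.

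Without clonotypes next to a larger one, 4 stop minus stop-free differences had an adjusted p of 0.0469 (exact permutation), because the neighbour measure dropped out of the adjustment and the unadjusted p was still 0.0312: clone size −3.26, 1-UMI share 20.9 points, V-J gap 1.12 bases and unusual J end 16.6 points. With 2 or more UMIs, the other-organ difference was −9.77 and past the threshold, without matching for size. The log2 size difference from out-of-frame shrank to −0.77 and passed since it was then the 1 measure of its family (exact permutation p = 0.0312, as before). The neighbour difference reversed to 3.42 and to 1.99 in mLN, the other-organ difference to 2.25 in mLN, and the KO minus WT differences in spleen to −0.0151 (UMIs) and −2.19 (gap). In libraries with few unusual ends, values moved to −2.39 (clone size), 3.61 bases (length), −24.5 (other organ), 3.38 (J end), −0.26 (size against out-of-frame), −1.01 (1-UMI share against out-of-frame) and 20.5 points (KO minus WT, gap, mLN).

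V segments called numbered 2 with DESeq2, 3 with TMM, 1 at 2 or more UMIs, 3 by UMIs (TRBV8, TRBV24 and TRBV4) and 3 in mLN. J segments called were 1 with DESeq2, 0 at 2 or more UMIs, 0 by UMIs, 1 in mLN and 1 in the mice with at least 100 stop clonotypes. TRBV5 reversed to −0.014 (TMM), −1.34 (2 or more UMIs), −0.62 (UMIs), −0.015 (mLN) and −0.050 (without KO replicate 3, with a range of −0.050 to 0.13 when 1 mouse was left out). TRBV3 reversed to −1.0 (2 or more UMIs) and −0.68 (UMIs), TRBV16 to −0.42 (UMIs), TRBV1 to 0.0080 (without WT replicate 4, range −0.14 to 0.0080), TRBJ2-1 to −0.052 and TRBJ1-1 to 0.34 (2 or more UMIs). TRBV4 ranged from 0.62 to 3.24 over 16 settings and was called in 14. Of the same 16 settings, TRBJ2-2 kept its call in 14, TRBV19 in 12 and TRBV29 in 8. TRBV16 and TRBJ2-5 kept theirs in 7, and TRBV12-1, TRBJ2-7 and TRBJ2-1 in 6.

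Leaving out 1 mouse gave 0 (without WT replicate 4) to 7 (without KO replicate 3) V segments and 1 (without WT replicate 3 or 4) to 4 J segments. The neighbour difference ran from −1.68 (without KO replicate 1) to 0.175, KO minus WT in spleen from −0.127 (without WT replicate 1) to 0.196 for UMIs, −0.208 to 0.814 for clonotypes and −0.281 to 21.8 for the gap. In mLN it ran from −0.427 (without KO replicate 2) to −0.147 (without WT replicate 4) for UMIs and −1.11 (without KO replicate 2) to −0.206 (without KO replicate 3) for clonotypes. The other-organ difference ran from −10.6 to −2.90 (without KO replicate 1), and mLN minus spleen from −0.122 to 0.0320 (UMIs, without KO replicate 3) and −0.498 to 0.0108 (clonotypes, without KO replicate 3). At 2488 UMIs a stop share under 1.22% of in-frame clonotypes was not detectable in KO replicate 3 mLN.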
